A study of Mus musculus with 94 samples.

Results

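L1 (LINE-1) retrotransposon expression was measured by total RNA-seq in cortex and hippocampus of male Ts65Dn (TS) mice and their wild-type (WT) littermates, either treated with lamivudine (TS-t, WT-t) or non-treated (TS-nt, WT-nt). Of the 430083 single L1 elements in the count table, the 10 described here were listed because the level of each agreed between the 2 tissues of the same animal: L1MC_dup5009, L1MEg_dup958, Lx3B_dup3459, Lx9_dup38033, Lx2_dup13255, L1Md_F2_dup34671, L1Md_A_dup6750, L1Md_T_dup3645, L1Md_T_dup16304 and L1Md_Gf_dup852. Ts65Dn mice carry an extra chromosome segment with genes orthologous to human chromosome 21, and are a model of Down syndrome. They came from females of the B6EiC4Sn.BLiA-Ts(1716)65Dn/DnJ stock crossed to B6C3F1/OlaHsd hybrid males, so that littermates do not share one uniform genome. The labels give an age of 3 to 4 months for the experiments, and treated mice had lamivudine at 3 mg/kg in the drinking water for 4 months while the others had water. There were 9 libraries each of WT-nt and TS-nt cortex, 17 of WT-t and 13 of TS-t cortex, 8 each of WT-nt and TS-nt hippocampus and 17 and 13 of WT-t and TS-t hippocampus, and 46 mice had both tissues. Mice are numbered here in the order of their animal labels. The study's methods mention pooling of samples by condition at the step where RNA quality was measured, and do not say whether the libraries were made from such pools, although each library has the label of 1 animal.

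L1 elements are non-LTR retrotransposons that copy themselves through an RNA intermediate and their own reverse transcriptase, the enzyme that lamivudine inhibits. The mouse genome holds a very large number of copies, most of them truncated, and the copies are named here by subfamily and copy number (the text after "dup"). L1M subfamilies such as L1MC and L1MEg are old and shared among mammals, Lx subfamilies spread early in the murine lineage, and among the L1Md subfamilies the A, T and Gf types include copies that can still move. Reads from an L1 copy can come from its own promoter or from a longer transcript that runs through it, and counts alone do not separate these. Near-identical copies of the young L1Md subfamilies share reads, so that the copy to which a read was assigned is less certain for L1Md_A_dup6750, the 2 L1Md_T copies, L1Md_Gf_dup852 and L1Md_F2_dup34671 than for the older ones. Genome positions and sequences of the 10 copies were not used here.

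The sum of counts over all L1 elements was between 186545 and 1165192 in cortex (median 323416), and hippocampus sums were between 178454 and 403378 (median 259745). In cortex 8 libraries stood apart on the first principal component, those of mice 1, 3, 4 and 47 (WT-t), 2 and 8 (TS-t), 23 (TS-nt) and 24 (WT-nt), and no hippocampus library did. These 8 libraries had a count on 3168 to 52819 elements (median 29562), against 33998 to 132569 (median 50072) in the other 40. Levels are given as CPM, that is counts per 1000000 counts on the tested elements, with library sizes scaled within each tissue. Brain marker genes were not checked, since only L1 counts were used. All 10 elements passed the filter on low counts in both tissues, as did 3722 elements in all.

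The agreement between tissues, which chose the elements, is described first and was not tested. Over the 46 mice, Spearman's rho between cortex and hippocampus was highest for L1MC_dup5009 at 0.891, followed by Lx3B_dup3459 at 0.827 and L1Md_F2_dup34671 at 0.805. Lx2_dup13255 had the lowest value of the 10 at 0.645, and the median over the 10 was 0.777. Among the 3722 elements tested in both tissues the median rho was 0.114 and the 5th and 95th percentiles were -0.17 and 0.452. A rho at or above that of Lx2_dup13255 was found in 53 of them (1.42%), so that the list does not hold every element of this kind. The elements just inside and just outside this limit that are not on the list were Lx2B2_dup8736 at 0.647 and Lx8_dup42260 at 0.644.

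**Figure D1:**
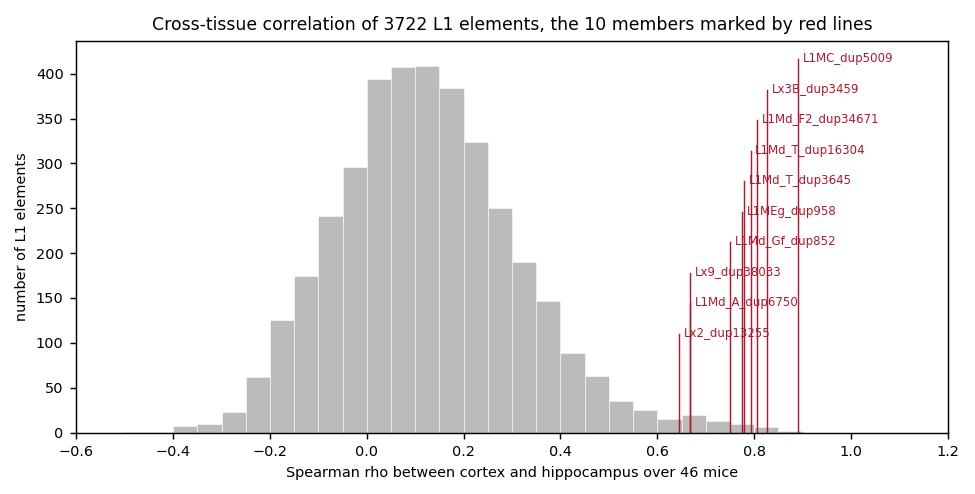
Number of L1 elements (y axis) by Spearman's rho between cortex and hippocampus over 46 mice (x axis), for the 3722 elements tested in both tissues. The red lines mark the 10 elements, which lie between 0.645 and 0.891, while the median of all elements is 0.114.

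The median agreement was similar in each set of animals that share the first digits of their label, which are 18 (7 mice), 19 (12 mice) and 20 (27 mice). Median rho over the 10 elements was 0.727, 0.782 and 0.780 in these sets. Single elements varied more in these small sets. L1MEg_dup958 had the lowest value, at 0.0714 in the 7 mice with labels beginning with 18, none of which had a low level of this element. Next were Lx2_dup13255 at 0.438 and L1Md_A_dup6750 at 0.522 in the 12 mice with labels beginning with 19, and L1Md_Gf_dup852 at 0.527 in the 7. After subtraction of the median of each genotype and treatment group, the median rho was 0.778. It was 0.794 over the 38 mice without a cortex library that stood apart.

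Lx3B_dup3459, L1MEg_dup958, L1MC_dup5009 and L1Md_Gf_dup852 had 2 levels set well apart in both tissues, and the other elements were less clearly divided. Each element's libraries were divided at the widest gap between neighbouring values of log2(CPM + 1), separately in cortex and hippocampus, into a low and a high level. Any set of values has such a gap, and this scale widens a step up from 0. On log2(CPM + 10), chosen after seeing the data, only the elements named above had a gap of at least 2.58 in both tissues. In several elements the low level was 0 counts, and in others it was a small but measured level. The scatter plots of cortex against hippocampus show these levels on axes of CPM + 1.

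**Figure D2:**
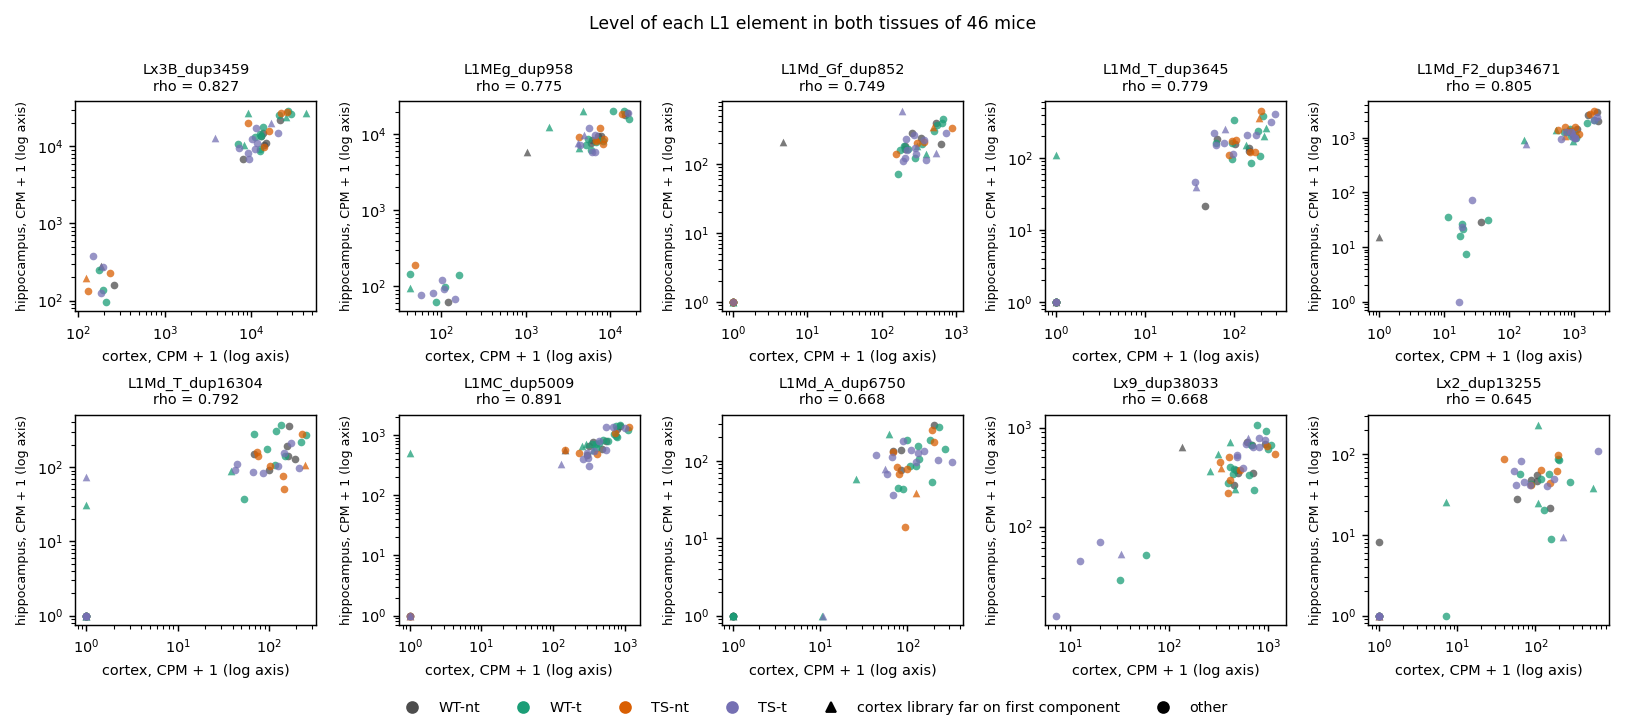
Level of each element in cortex (x axis) and hippocampus (y axis) as CPM + 1 on log axes, with 1 point per mouse for 46 mice, coloured by genotype and treatment; triangles mark mice whose cortex library stood apart on the first principal component. In most panels the points form a cloud at the lower left and one at the upper right, and the points at the upper left of the L1Md_Gf, L1Md_T and L1MC panels are triangles.

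Among the old mammalian subfamilies, L1MC_dup5009 was at 0 counts in 7 of 48 cortex libraries and at 126 to 1136 CPM (28 counts or more) in the other 41. In hippocampus it was at 0 in 6 of 46 libraries and at 309 to 1478 CPM (51 counts or more) in 40. No library lay between 0 and 28 counts of this element. L1MEg_dup958 had a low level that was not 0: 12 cortex libraries were at 41.8 to 163 CPM (7 to 28 counts) and 36 were at 1022 to 16444 CPM. Its 46 hippocampus libraries fell into 12 at 61.2 to 192 CPM and 34 at 5809 to 20390 CPM. The median of the high level was 70.7 times that of the low level in cortex and 94.9 times in hippocampus.

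Of the Lx subfamilies, Lx3B_dup3459 showed the same form, with 13 cortex libraries at 123 to 258 CPM and 35 at 3805 to 42561 CPM. In hippocampus 11 libraries were at 95.2 to 373 CPM and 35 at 6780 to 28818 CPM, and the ratio of the medians was 71.4 in cortex and 70.9 in hippocampus. Every library had 17 or more counts of it, so that even the low level was measured above 0. Lx9_dup38033 was closer to graded. Its widest gap in cortex was 0.96 on the log2 scale, from 133 to 260 CPM, with 8 libraries below it, and in hippocampus it was 1.64, from 68.6 to 216 CPM, with 6 libraries below. Lx2_dup13255 was at 0 counts in 14 cortex and 12 hippocampus libraries, and at a median of 112 CPM in the other 34 cortex libraries. Its counts in hippocampus were small (median 6, at most 31), and 23 of 46 libraries had 3 to 9 counts, so that low and high levels of this element were poorly resolved there.

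L1Md_F2_dup34671 had 2 levels that were separated in hippocampus by a gap from 72.0 to 762 CPM, with 11 libraries below and 35 above. In cortex the widest gap lay between 0 and 2 counts and cut off only 1 library. With a pseudocount of 10 in place of 1, chosen after seeing the data, the cortex gap ran from 46.3 to 171 CPM and also left 11 libraries below.

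The young copies were mostly either at 0 or clearly counted. L1Md_Gf_dup852 had 0 or 1 count in 11 cortex libraries and 157 to 885 CPM (25 counts or more) in 37, and in hippocampus it was at 0 in 10 libraries and at 71 to 586 CPM in 36. L1Md_T_dup3645 was at 0 in 13 cortex and 11 hippocampus libraries, and its lowest counts above 0 were 7 and 3. L1Md_T_dup16304 was at 0 in 16 cortex and 13 hippocampus libraries, and its lowest counts above 0 were 5 and 4. The medians of the L1Md_T copies over all libraries of a tissue were only 14 to 19 counts, and since a count of 0 allows up to 3 counts, their gaps are less wide than the log scale makes them appear. For L1Md_A_dup6750, 8 cortex and 9 hippocampus libraries were at 0, but the gap above them began at 1 count in cortex and 2 counts in hippocampus. Limits of this kind cover counting error only.

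Within the high level, each element was divided once more, after the values were seen, at the widest gap among mice high in both tissues that left at least 3 mice on each side. The elements were chosen for agreement between tissues, so agreement within the high level is a description only and was not tested. Any set of values has a widest gap, and the ratio of the medians on its sides is set by the division. Described here is which mice fall on each side in both tissues. For L1Md_F2_dup34671 all were the same, with gaps of 0.43 in cortex and 0.22 in hippocampus on the log2 scale: of 35 mice, 9 were at 1619 to 2390 CPM in cortex and 26 at 171 to 1199 CPM, and the same 9 were at 1821 to 3077 CPM in hippocampus, above 762 to 1561 CPM in the same 26. The ratio of the upper to the lower median was 2.29 in cortex and 1.99 in hippocampus. The 9 mice were 3 WT-nt mice and 2 of each other group. L1MEg_dup958 had gaps of 0.38 and 0.36, with 7 mice above the gap in both tissues and 33 of 34 mice on the same side, and ratios of 2.49 and 2.31; the exception was mouse 4, at 4758 CPM in cortex, where its library stood apart, and 20327 CPM in hippocampus. For Lx3B_dup3459, 31 of 35 mice were on the same side of gaps of 0.27 and 0.19, and for L1Md_A_dup6750 30 of 37 were on the same side of gaps of 0.23 and 0.27. Only 9 mice in cortex and 4 in hippocampus were above the gap of L1Md_A_dup6750, and 3 in both. Most of its 30 were thus below the gap in both tissues, which such uneven divisions favour. Gaps this narrow do not tell a step from a graded range.

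In the other 5 elements divided in this way, between 10 of 31 mice (L1Md_T_dup16304) and 20 of 34 (L1Md_T_dup3645) were on the same side in both tissues. The divisions of these elements fell at different places in the 2 tissues, which limits such counts. For L1MC_dup5009, 36 mice were above the gap in cortex and 13 in hippocampus, and for L1Md_Gf_dup852 10 and 30. The order of the mice within the high level was partly shared. The elements were chosen for such agreement, and it was not tested. Over the 39 mice high in both tissues, the Spearman correlation was 0.839 for L1MC_dup5009, and for the other elements divided in this way it was between 0.368 (L1Md_A_dup6750) and 0.644 (Lx3B_dup3459). It was 0.0692 for Lx2_dup13255 over 33 mice, on the division with a pseudocount of 1.

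The tissues of a mouse were on the same side of the gap in 440 of 460 pairs of element and mouse. Of the 20 exceptions, 10 were L1Md_F2_dup34671, whose cortex gap cut off only 1 library, and with a pseudocount of 10 this element was on the same side in all 46 mice. A further 2 were Lx2_dup13255, at 1 count in one tissue and 0 in the other. The remaining 8 were all in mice whose cortex library stood apart: mouse 1 for L1Md_T_dup3645, L1Md_T_dup16304 and L1MC_dup5009, mouse 24 for L1Md_Gf_dup852 and Lx9_dup38033, mouse 2 for L1Md_T_dup16304, and mice 3 and 8 for L1Md_A_dup6750. For L1Md_A_dup6750, mice 3 and 8 had 1 count in cortex and 0 in hippocampus, a difference as small as that of Lx2_dup13255. In mouse 1, L1MC_dup5009 had 0 counts in cortex and 68 in hippocampus, and its cortex library had counts on only 3168 elements. In mouse 24, which had the highest total in cortex, L1Md_Gf_dup852 had 1 count in cortex and 29 in hippocampus. With a pseudocount of 10, chosen after seeing the data, Lx2_dup13255 was on different sides in 31 of 46 mice. All 10 elements then differed in 39 of 460 pairs, and in 28 of 380 without the 8 mice. The 9 elements other than Lx2_dup13255 differed in 8 of 414 pairs, and in 0 of 342 without the 8 mice.

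Counts without any scaling were also divided into classes. Taking under 3 counts as off and 10 or more as on, 328 of 460 pairs were on in both tissues, 64 were off in both and 7 were off in one and on in the other. In the other pairs at least 1 tissue had 3 to 9 counts. These classes do not show the 2 levels of Lx3B_dup3459 and L1MEg_dup958, whose low level was itself counted. They were on in both tissues in 46 and 42 of 46 mice, although 11 and 12 mice were at the low level in both. Pairs of these elements could thus hardly differ in class, and they add to the 328. Correlations of the levels with the library total were between -0.43 (L1Md_F2_dup34671) and 0.222 (L1Md_A_dup6750) in cortex and between -0.29 (L1MEg_dup958) and 0.446 (L1Md_A_dup6750) in hippocampus. L1Md_A_dup6750 also moved with the number of elements that had a count in a library, with a rho of 0.565 in cortex and 0.545 in hippocampus, and the part of depth in its low level was not tested.

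The elements did not go together as one set. Over the 45 pairs of elements, rho was between -0.52 and 0.737 in cortex with a median of 0.0516, and hippocampus values were between -0.65 and 0.547 with a median of -0.03. Of the 46 mice, 20 had 2 elements at the low level in both tissues, 14 had 1, 6 had 3 and 3 had none. Mouse 24 had 6 such elements, and mice 22 and 46 had 5. This tally uses the division with a pseudocount of 1, in which L1Md_F2_dup34671 was low in both tissues in 1 mouse alone. With a pseudocount of 10 for this element, 20 mice had 2 low elements, 10 had 1, 9 had 3, 3 had none, and mice 22 and 24 had 6. The heat map of relative levels shows these different combinations.

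**Figure D3:**
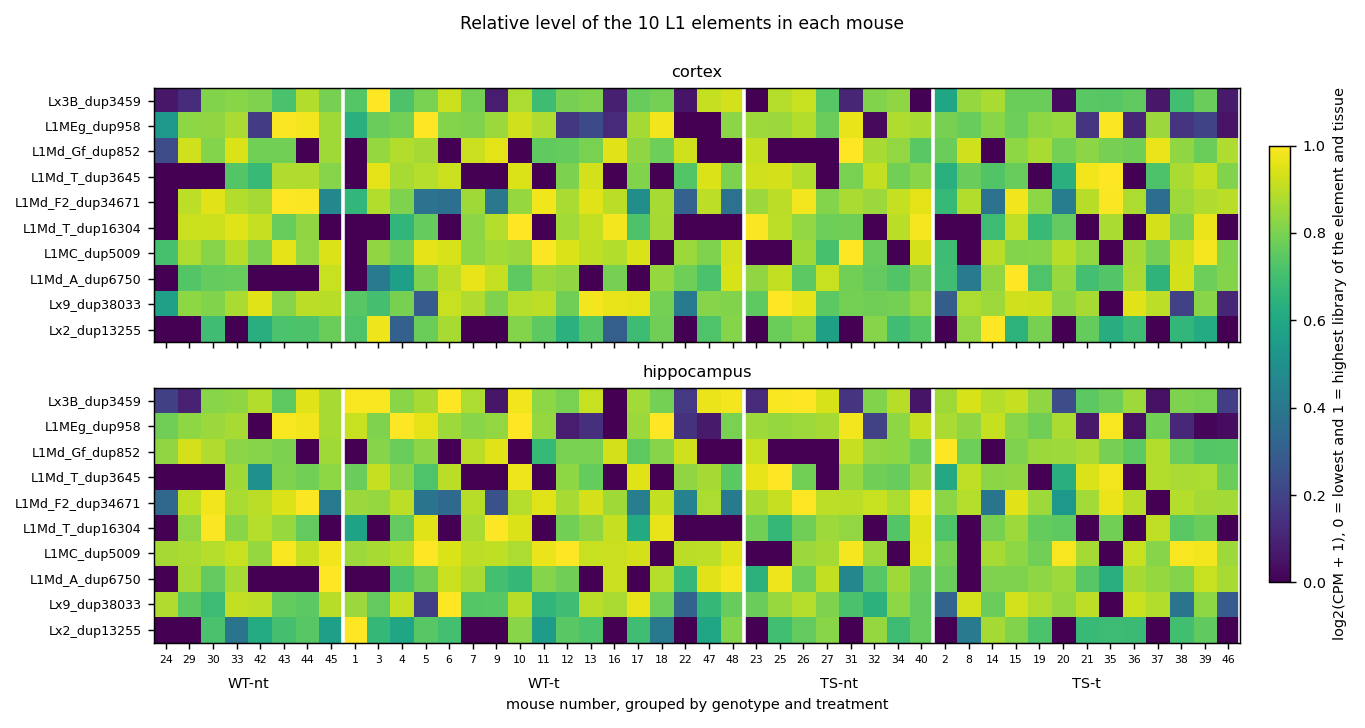
Relative level of the 10 elements (rows) in each of 46 mice (columns, grouped by genotype and treatment) in cortex (top) and hippocampus (bottom), as log2(CPM + 1) set to 0 in the lowest and 1 in the highest library of each element and tissue. The dark cells recur in the same mouse in both panels, and fall in different mice for different elements.

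Lx3B_dup3459 and Lx2_dup13255 were the most alike of the 10, with a rho of 0.737 in cortex and 0.547 in hippocampus. Each was at the low level in 11 mice, and 9 of these were shared (81.8% of each). L1Md_T_dup22783 and L1Md_F2_dup46999, which are not on the list, were among the 3 elements most like each of them, with a rho in hippocampus between 0.617 and 0.762. L1Md_Gf_dup852 went the opposite way. Its rho was -0.52 with Lx2_dup13255 and -0.45 with Lx3B_dup3459 in cortex and -0.65 with each in hippocampus. It was at the low level in 10 mice, and 0 of these were low for either Lx element.

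Some elements that are not on the list followed a member closely in both tissues. Lx9_dup38033 was most like L1_Mur1_dup6397, with a rho of 0.898 in cortex and 0.769 in hippocampus, and next like Lx2B2_dup8736 at 0.804 and 0.738. L1Md_T_dup16304 was most like the copies that follow it in the numbering, L1Md_T_dup16305 (0.774 and 0.547) and L1Md_T_dup16306 (0.682 and 0.685). L1Md_T_dup3645 had a rho of 0.705 and 0.510 with Lx2_dup2775. For L1MEg_dup958 the nearest element in cortex, L1M4b_dup171, had a rho of 0.587 there and 0.0494 in hippocampus, and L1MB4_dup1286 had 0.515 and 0.430. These values share libraries and depth, and are descriptions over 48 cortex and 46 hippocampus libraries.

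Lx3B_dup3459 and L1MEg_dup958 held a large share of their subfamily's counts. Lx3B_dup3459 was the most counted of 2269 Lx3B copies and held a median of 47.2% of the Lx3B counts in cortex, between 0.579% and 75.7% in single libraries. L1MEg_dup958 held 32.7% of the L1MEg counts in cortex and 42.4% in hippocampus. The sum of Lx3B counts had a cross-tissue rho of 0.753 with this copy and 0.350 without it, and the L1MEg sum 0.807 with and 0.539 without its copy. In contrast, L1Md_T_dup3645 held 0.168% and L1Md_F2_dup34671 0.747% of their subfamily's counts in cortex, and the sums of these large subfamilies had nearly the same rho with and without the copy (0.356 and 0.358 for L1Md_T). Other copies of the same subfamilies had median cross-tissue rho values between 0.0887 (L1Md_Gf) and 0.181 (Lx2).

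Whether the levels depended on genotype or treatment was tested with edgeR's quasi-likelihood test in each tissue, with Benjamini-Hochberg adjustment over all tested elements and an adjusted p below 0.1 as the threshold. None of the 10 elements passed in any of the 12 comparisons, which in each tissue were genotype among non-treated and among treated mice, treatment within TS and within WT, TS-t against WT-nt, and the interaction of genotype with treatment. The background was itself near 0: 0% of 5416 elements were called in each cortex comparison, and in hippocampus 0.0708% of 4238 by genotype among non-treated mice, 0.0472% for TS-t against WT-nt and 0% in the other 4. DESeq2 likewise called 0 of the 10 in each comparison (it gave Lx2_dup13255 no adjusted p in hippocampus for TS-t against WT-nt or for genotype among treated mice, where 9 could be called), against a background of 0% in cortex and, in hippocampus, of 0.425% for TS-t against WT-nt, 0.0708% and 0.283% by genotype among non-treated and treated mice, 0.0236% with treatment in TS and 0% in the other 2. None of the 120 edgeR values of the 10 elements had an unadjusted p below 0.05 (lowest 0.163). In cortex such a p was found for 1.51% of all elements by genotype among non-treated mice, 1.75% for TS-t against WT-nt, 0.905% with treatment in TS, 1.59% with treatment in WT, 1.96% by genotype among treated mice and 1.11% for the interaction. The matching shares in hippocampus were 4.03%, 4.25%, 3.26%, 3.16%, 3.94% and 3.11%. The tests in both tissues used mostly the same mice and are not independent.

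These tests had wide errors for elements with 2 levels. Standard errors of the log2 fold changes were between 0.389 and 1.27, and the 95% intervals of the 120 values reached from -3.38 to 2.99, so that differences of several fold in the mean lay within them. In TS-nt vs. WT-nt, 6 of the 10 were higher in TS-nt in cortex and 5 in hippocampus, with median log2 fold changes of 0.06 and 0.09. The comparison TS-t vs. TS-nt had 3 higher and 7 lower in each tissue, with medians of -0.13 and -0.31. Over all tested elements the medians in cortex and hippocampus were 0.069 and -0.033 for TS-nt vs. WT-nt. They were 0.019 and 0.044 for TS-t vs. TS-nt. The elements were chosen for agreement between tissues of the same mice, so a like count in each tissue is not a second result.

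**Figure D4:**
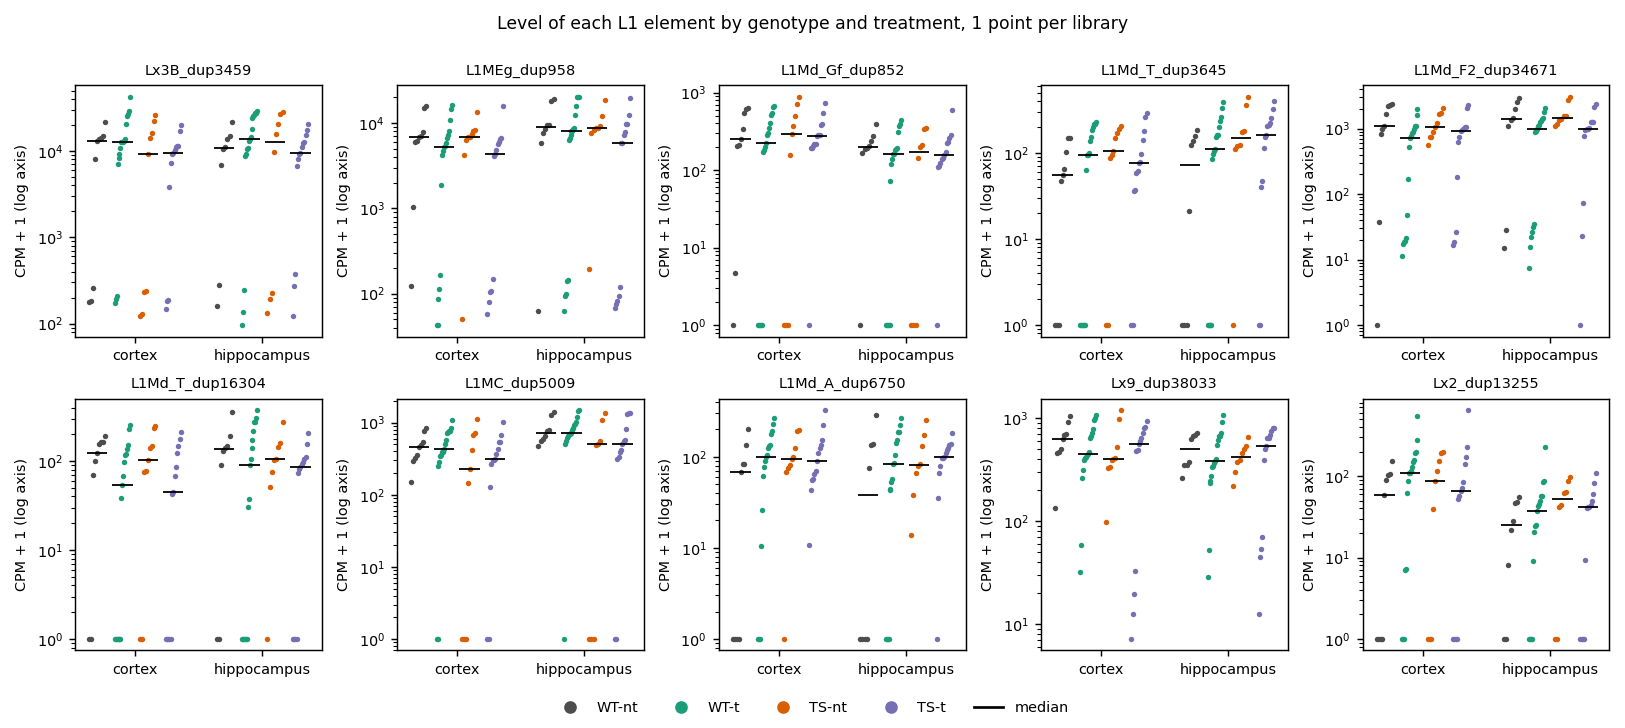
Level of each element as CPM + 1 (log axis) by tissue and group, with 1 point per library, sorted within the group, and the median as a black line. Low and high levels occur side by side in most groups, and the groups overlap in every panel.

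The largest difference by genotype among non-treated mice was that of L1Md_T_dup3645 in hippocampus. It ranged from 0 to 186 CPM (median 71.9) in 8 WT-nt libraries and from 0 to 451 CPM (median 148) in 8 TS-nt libraries. The groups overlapped, 3 WT-nt and 1 TS-nt libraries were at 0, and the log2 fold change was 1.26 (SE 0.89, 95% interval -0.48 to 2.99, adjusted p = 0.998 by edgeR). In cortex the same element had a log2 fold change of 0.81 (SE 0.91, 95% interval -0.98 to 2.60, adjusted p = 0.999 by edgeR).

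Among WT mice, Lx2_dup13255 differed most with treatment in cortex. It ranged from 0 to 151 CPM (median 57.7) in 9 WT-nt libraries and from 0 to 548 CPM (median 108) in 17 WT-t libraries, of which 4 and 3 were at the low level. Its log2 fold change was 1.14 (SE 0.91, 95% interval -0.64 to 2.92, adjusted p = 0.999 by edgeR). Among TS mice L1MEg_dup958 differed most in cortex, at 48.9 to 13630 CPM (median 6847) in TS-nt and 57.4 to 15922 CPM (median 4385) in TS-t, with a log2 fold change of -0.71 (SE 0.86, 95% interval -2.40 to 0.98, adjusted p = 1.000 by edgeR). The ranges of both groups were nearly the same, and 1 of 9 TS-nt and 5 of 13 TS-t libraries were at the low level.

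Counts of low libraries by group show how unevenly single elements could fall. L1MC_dup5009 was at 0 in 0 of 9 WT-nt, 2 of 17 WT-t, 3 of 9 TS-nt and 2 of 13 TS-t cortex libraries. L1Md_A_dup6750 was at 0 in 4 of 9 WT-nt, 3 of 17 WT-t, 1 of 9 TS-nt and 0 of 13 TS-t cortex libraries. L1Md_Gf_dup852 was low in 2, 5, 3 and 1, L1Md_T_dup3645 in 3, 6, 2 and 2, and L1Md_T_dup16304 in 2, 7, 2 and 5 of the same groups. Both levels were thus seen in at least 3 of the 4 groups for each of these 5 elements. L1Md_F2_dup34671 was low in hippocampus in 2 of 8 WT-nt, 6 of 17 WT-t, 0 of 8 TS-nt and 3 of 13 TS-t libraries. For Lx9_dup38033, 4 of the 6 low hippocampus libraries were TS-t and the other 2 WT-t, and the 8 low cortex libraries were 4 TS-t, 2 WT-t, 1 TS-nt and 1 WT-nt. Some low cortex libraries were among those that stood apart, from mice on the high side in hippocampus. They were mouse 24 (WT-nt) for L1Md_Gf_dup852 and Lx9_dup38033, mouse 1 (WT-t) for L1MC_dup5009 and both L1Md_T copies, and mouse 2 (TS-t) for L1Md_T_dup16304. These counts were not tested.

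The first digits of the animal label went with treatment, since all non-treated mice had labels beginning with 20. Treated and non-treated mice could be compared within this set, with 11 treated mice. L1MEg_dup958 was low in 7 of these 11 in cortex and in 2 of 18 non-treated libraries, and low in 3 of 12 and 0 of 7 treated libraries with labels beginning with 19 and 18. Within the set the log2 fold change of L1MEg_dup958 in WT-t vs. WT-nt was -1.91 (SE 1.69, adjusted p = 1 by edgeR) in cortex and -2.20 (SE 1.75, adjusted p = 1.000) in hippocampus. The log2 fold change of L1MEg_dup958 in TS-t vs. TS-nt in cortex was -0.92 (SE 1.10, unadjusted p = 0.414 by edgeR). L1Md_T_dup16304 was at 0 in all 3 WT-t mice of the set in both tissues, against 2 of 9 WT-nt cortex libraries, and had an unadjusted p of 0.00909 in cortex and 0.00638 in hippocampus for WT-t vs. WT-nt (adjusted p = 1 and 1.000 by edgeR). None of the other 9 had an unadjusted p below 0.05 in this comparison, and of all elements tested in it 2.45% of 9188 had one in cortex and 2.07% of 6535 in hippocampus. For L1Md_T_dup16304 in cortex the unadjusted p by edgeR was also 0.0131 for TS-t vs. WT-t and 0.0210 for the interaction. Both rest on the same 3 WT-t mice, and 172 and 171 of the 9188 elements had a p below 0.05 in them. Animal label and treatment cannot be told apart in the other sets, which held treated mice alone.

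Cortex and hippocampus were compared in one fit over both tissues, in which 7551 elements were tested. Without the animal in the model, 1 of the 10 was called, Lx2_dup13255, which was higher in cortex with a log2 fold change of 1.27 (SE 0.43, adjusted p = 0.0287 by edgeR). In the same fit 22.7% of all elements were called, 12.2% as higher and 10.4% as lower in cortex. DESeq2 called 2 of the 10 and 34.3% of all elements. With the animal as a replicate block, which pairs the tissues of each of 46 mice, 6 of the 10 were called, against 25.6% of all elements (12.9% higher and 12.7% lower in cortex). The 10 were chosen for levels that agree by animal, which by construction lowers the spread left under this block, so the rise from 1 to 6 calls and its distance from 25.6% are not read as a result. Standard errors and adjusted p values under the block rest on the same lowered spread, and are given as a description only. L1MC_dup5009 was lower in cortex by a log2 fold change of -0.80 (SE 0.14, adjusted p = 3.95e-07 by edgeR), L1MEg_dup958 by -0.49 (SE 0.12, adjusted p = 0.00122), L1Md_F2_dup34671 by -0.46 (SE 0.12, adjusted p = 0.00164) and L1Md_T_dup3645 by -0.52 (SE 0.23, adjusted p = 0.0975). Without the block their adjusted p values by edgeR were 0.203, 0.495, 0.623 and 0.395. Lx2_dup13255 was higher in cortex by 1.25 (SE 0.30, adjusted p = 0.000523) and L1Md_Gf_dup852 by 0.60 (SE 0.19, adjusted p = 0.0117, against 0.180 by edgeR without the block). The part of each tissue's cell types or of the assignment of reads in these differences was not tested.

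**Figure D5:**
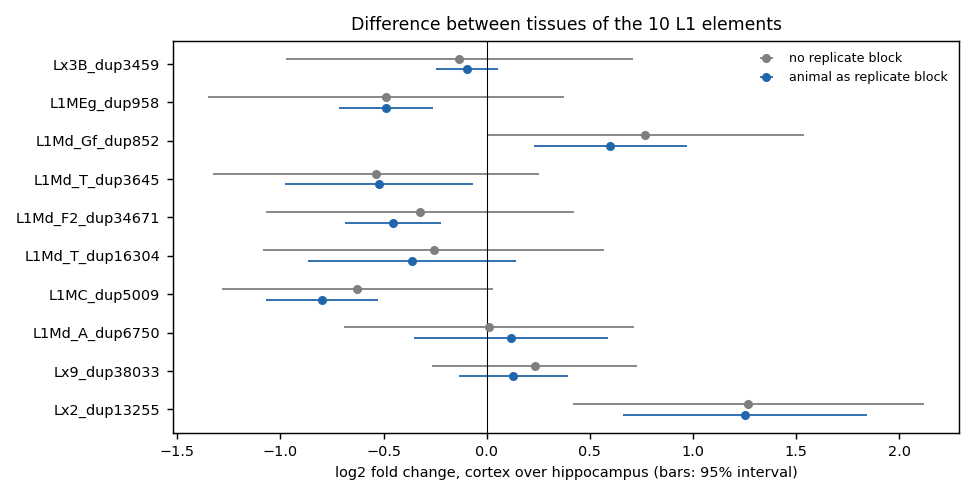
Log2 fold change of cortex over hippocampus (x axis) for each element (y axis), with 95% intervals, fitted without the animal (grey) and with the animal as a replicate block (blue). With the block, 4 elements were called lower and 2 higher in cortex, and the intervals are narrower for all 10. The choice of elements by agreement between tissues itself lowers the spread under the block.

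Remaining elements differed less: with the block the log2 fold change was -0.10 for Lx3B_dup3459 (SE 0.08, 95% interval -0.25 to 0.06), -0.36 for L1Md_T_dup16304 (SE 0.26), 0.12 for L1Md_A_dup6750 (SE 0.24) and 0.13 for Lx9_dup38033 (SE 0.14). The interval of Lx3B_dup3459 is the narrowest of these. Scaling moved the share of all called elements that were higher in cortex from 54.0% to 70.2% with DESeq2 size factors, and the median log2 fold change of all elements from 0.09 to 0.22, but turned the direction of none of the 10.

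The variation that remained after fitting shows how much of each element's spread went with the animal. This spread is the biological coefficient of variation (BCV) that edgeR estimates. Without the animal the BCV of the 10 was between 0.782 (Lx9_dup38033) and 1.54 (L1Md_T_dup16304), against a median of 0.888 over all 7551 elements. With the animal as a block it was between 0.361 (L1MEg_dup958) and 0.671 (Lx2_dup13255), against a median of 0.844. The ratio of the BCV without to that with the block was between 1.83 and 3.57 for the 10 and had a median of 1.04 over all elements. A ratio at or above the lowest of the 10 was found in 53 elements (0.702%). This measure uses the same agreement between tissues by which the elements were chosen, and is given as a description.

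Calls by genotype or treatment were also counted among other copies of the same subfamilies. Over the 12 comparisons, 2 calls were made among the other L1Md_F2 copies, both higher in the first-named group, and 0 among the other copies of the remaining 8 subfamilies. The L1Md_F2 copies tested numbered 509 in cortex and 382 in hippocampus. Over all elements there were 3 calls of 4238 (0.0708%) by genotype among non-treated mice and 2 of 4238 (0.0472%) for TS-t against WT-nt. Both were in hippocampus, and every other comparison had 0 calls. With so few calls in all, no difference of L1Md_F2 from the background is read from them.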

How the data were processed

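The deposited values are whole-number counts of reads per L1 element, which the authors made by trimming with Trimmomatic 0.38, aligning to GRCm38/mm10 with HISAT2 2.1.0 with several alignments per read allowed, and counting with Telescope, without normalization. How strand was used in counting is not given in the sources used here. Groups came from the sample labels and mouse numbers from the animal labels. No 2 libraries held identical counts. Elements were kept by filterByExpr and scaled by TMM in edgeR 4.0.16 (R 4.3.3), with quasi-likelihood tests and adjustment over all tested elements; a standard error is the log2 fold change divided by the root of the F statistic, and a 95% interval is normal. Self-tests used simulated counts. DESeq2 1.42.0, other filters, scalings and sets of libraries were alternatives. A permutation test planned for elements below the filter was not needed. Libraries were far on the first component when over 3 median absolute deviations from the median. The 2 tissues were paired by animal number: over the 3712 other elements tested in both tissues, deviations from the group mean correlated more within an animal (median 0.107, over 0.1 in 28 of 46 mice) than between animals (median -0.0027). The elements named were the 10 listed, the 3 elements most like each in cortex, their subfamilies and the elements nearest the lowest rho; the list and these choices were made with earlier results of these data known. Library totals are given with the results; p values measure the spread between libraries.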

Additional observations from a re-analysis of the deposited data

Results flagged for a closer look

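One value stood far from the rest of its group. L1Md_A_dup6750 was at 290 CPM (42 counts) in the hippocampus of WT-nt mouse 45, and the next highest of the 8 WT-nt libraries was at 136 CPM, a gap of 0.530 of the group's range. Groups of 8 or 9 libraries were examined for this, 40 in all over the 10 elements, and chance marks about 1 in 20 where values are normally distributed, which elements listed for a low and a high level need not be.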

How the results depend on the processing

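All 78 alternative values of the number of elements called by genotype or treatment were 0, as in the values reported (DESeq2, DESeq2 size factors, both filters, mice with labels beginning with 20, cortex without the libraries that stood apart, and adjusted p below 0.05). The filters changed the calls over all elements, from 0 in each cortex comparison and 0 to 3 in hippocampus to 10433 to 64311 (2.98% to 18.4%) and 0 to 25101 (0% to 9.27%) without a filter, and to 12765 to 46478 (6.86% to 25.0%) and 13378 to 18265 (10.6% to 14.5%) with at least 10 counts in total. DESeq2 called 0 to 18 in hippocampus. For cortex against hippocampus the number called was 1, and it became 6 with the animal as replicate block, 7 with the block and without mice with a library that stood apart (chosen after seeing the data), and 2 with DESeq2 size factors, with DESeq2 or without the libraries that stood apart. Over all elements the share called was 22.7%, and in the same order 25.6%, 30.9%, 26.9%, 34.3% and 29.4%. Without these mice Lx9_dup38033 was also called under the block, where the spread was lowered by the choice of elements. The log2 fold change of Lx3B_dup3459 was -0.13 without the block, -0.10 with it and 0.011 with it and without these mice, called in none of these. In TS-t vs. WT-nt in cortex, Lx2_dup13255 turned from 1.00 to -0.11 among mice with labels beginning with 20. The median cross-tissue rho of 0.777 became 0.922 as Pearson's r of log2(CPM + 1). Pairs off in one tissue and on in the other numbered 7, and 4 with on at 20 or more counts or 3 with off at 0 only. Pairs on different sides of the gap numbered 20, and 39 with a pseudocount of 10, of which 31 were Lx2_dup13255, or 12 of 380 without mice with a library that stood apart, both chosen after seeing the data; both changes together gave 28 of 380. The cause of these changes was not tested. Depth limits Lx2_dup13255, which had a median of 6 counts in hippocampus.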

Other observations

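Other elements passed the same limits as most of the 10. Taking a gap of at least 2 in log2(CPM + 1) in each tissue, at least 3 mice on each side and at least 90% of mice on the same side in both tissues, limits that were chosen after seeing the data, 77 of 3722 elements (2.07%) passed, from 35 subfamilies, and 8 of the 10 were among them. On this scale a step from 0 to 1 or 2 counts can pass, as for Lx2_dup13255 and L1Md_A_dup6750. With a pseudocount of 10 their gaps were 0.97 to 1.57, and those of L1Md_T_dup3645 and L1Md_T_dup16304 in hippocampus 1.60 and 1.99. How many of the 77 rest on such small counts was not tested. Those of the 77 not on the list with the highest cross-tissue rho were Lx3B_dup2360 (0.735, low in 21 mice in each tissue), L1M5_dup15196 (0.710), HAL1ME_dup792 (0.699) and L1MB8_dup4011 (0.688). L1Md_T_dup16306, which was most like L1Md_T_dup16304 in hippocampus among the elements named, was low in 11 mice in each tissue. L1_Mur1_dup6397, the closest to Lx9_dup38033, had a gap of 3.92 in cortex and 7.61 in hippocampus.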
